A study of Mus musculus with 2 samples.

Results

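Long non-coding RNA (lncRNA) genes that stand apart from protein-coding genes were examined for trimethylation of lysine 4 of histone H3 (H3K4me3) in mouse neural progenitor cells. Genes on chromosomes 1 to 19 came from RefSeq's annotation of assembly GRCm38.p6, which shares its coordinates with mm10. A gene was included when its biotype was lncRNA, it overlapped no protein-coding gene and both of its ends lay over 5 kb from every end of a protein-coding gene. This gave 6279 of 12408 lncRNA genes and of 47042 genes of any kind on these chromosomes. They are called far lncRNA genes here. Of the other 6129 lncRNA genes, 4502 overlapped a coding gene and 1627 lay beside one.

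The labels describe adult neural progenitor cells, grown with EGF and bFGF in N2 medium and otherwise untreated; strain and exact age are not given in the sources used here. There was 1 H3K4me3 library, which the labels mark "con" and the file header names after EGF, and 1 input library of the same cells. Without replicates the spread between cultures is unknown, and no conditions were compared. Per the file header, 18156769 tags were left in the H3K4me3 library after filtering and 17831241 in the input. A gene was called marked when a peak of the authors' list overlapped the window of 1 kb on either side of an annotated end. Intervals are exact 95% binomial intervals over genes or promoters. They cover counting error only, and because genes are not replicates no test between gene classes was made.

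H3K4me3 is deposited by the SET1 and MLL methyltransferase complexes and in mammals lies over the start sites of active and poised genes. Promoters rich in CpG dinucleotides are bound by CXXC-domain proteins of these complexes and are the usual seat of the mark. lncRNAs are transcribed by RNA polymerase II like messenger RNAs. At those far from coding genes the mark is less easily that of a coding neighbour's start, though a wide region can still reach both. Some act in the nucleus, such as Malat1 in nuclear speckles and Neat1 as the scaffold of paraspeckles, some are precursors of microRNAs or small nucleolar RNAs, and most have no assigned function.

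The promoters of 6 far lncRNA genes show the range of sequences behind the results. The sequences are from the RefSeq promoter table of GRCm38.p6 and run from 250 bases before to 50 after an annotated start. Each is given 5′ to 3′, with every CpG in capitals. The first 4 belong to marked genes: the snoRNA host Snhg5 and the miR-9 host Mir9-3hg are rich in CpG, whereas Malat1 and the miR-31 host Gm49890 are not. Miat and Tunar, which are linked to neurons, are rich in CpG and had no peak at either end.
Snhg5, chr9:88522848-88523147, minus strand: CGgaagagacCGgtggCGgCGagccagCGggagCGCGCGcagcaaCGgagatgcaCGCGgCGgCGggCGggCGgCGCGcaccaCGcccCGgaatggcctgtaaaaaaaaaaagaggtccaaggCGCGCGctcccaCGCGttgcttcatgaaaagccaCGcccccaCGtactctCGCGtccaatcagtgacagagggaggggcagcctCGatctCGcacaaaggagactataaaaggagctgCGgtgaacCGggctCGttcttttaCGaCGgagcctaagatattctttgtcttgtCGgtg
Mir9-3hg, chr7:79499776-79500075, plus strand: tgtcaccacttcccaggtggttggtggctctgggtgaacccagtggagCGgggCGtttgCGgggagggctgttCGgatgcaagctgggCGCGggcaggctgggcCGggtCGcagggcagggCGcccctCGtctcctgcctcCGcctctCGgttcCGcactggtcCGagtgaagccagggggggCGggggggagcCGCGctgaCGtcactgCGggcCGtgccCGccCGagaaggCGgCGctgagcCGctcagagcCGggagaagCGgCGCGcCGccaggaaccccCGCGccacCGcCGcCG
Malat1, chr19:5802623-5802922, minus strand: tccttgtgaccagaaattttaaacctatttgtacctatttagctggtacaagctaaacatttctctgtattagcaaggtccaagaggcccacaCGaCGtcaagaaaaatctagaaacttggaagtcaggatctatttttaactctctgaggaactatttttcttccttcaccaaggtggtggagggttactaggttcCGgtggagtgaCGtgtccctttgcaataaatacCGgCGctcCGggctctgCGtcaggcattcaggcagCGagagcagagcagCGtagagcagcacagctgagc
Gm49890, chr4:88941993-88942292, minus strand: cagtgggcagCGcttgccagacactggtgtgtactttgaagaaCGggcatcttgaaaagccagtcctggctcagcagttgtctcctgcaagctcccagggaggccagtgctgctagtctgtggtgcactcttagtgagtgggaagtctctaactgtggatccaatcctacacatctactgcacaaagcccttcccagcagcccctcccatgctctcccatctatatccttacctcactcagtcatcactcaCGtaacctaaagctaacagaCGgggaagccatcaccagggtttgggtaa
Miat, chr5:112228899-112229198, minus strand: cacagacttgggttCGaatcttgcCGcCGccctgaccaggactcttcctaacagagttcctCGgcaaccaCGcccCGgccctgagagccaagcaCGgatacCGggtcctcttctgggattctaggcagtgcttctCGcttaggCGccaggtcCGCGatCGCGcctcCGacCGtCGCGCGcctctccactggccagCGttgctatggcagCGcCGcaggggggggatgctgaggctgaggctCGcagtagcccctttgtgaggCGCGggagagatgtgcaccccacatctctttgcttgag
Tunar, chr12:105336743-105337042, plus strand: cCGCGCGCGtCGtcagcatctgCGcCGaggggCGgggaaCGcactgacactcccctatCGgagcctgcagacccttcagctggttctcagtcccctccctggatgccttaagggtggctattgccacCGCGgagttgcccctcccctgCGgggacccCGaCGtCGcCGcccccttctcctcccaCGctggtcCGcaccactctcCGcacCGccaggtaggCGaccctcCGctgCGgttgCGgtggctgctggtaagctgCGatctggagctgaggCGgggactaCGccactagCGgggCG
These windows held 36 CpG at Snhg5, 35 at Mir9-3hg, 10 at Malat1, 4 at Gm49890, 25 at Miat and 30 at Tunar. The window of Tunar is the one with more CpG of its 2 listed starts.

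Few far lncRNA genes were marked, and the few that were included some of the widest H3K4me3 regions of the library. Of the 6279 genes, 480 had a peak at an end, which is 7.64% (95% interval 6.999 to 8.33). The share was 20.3% over all lncRNA genes, 57.8% over protein-coding genes and 32.7% over genes of every kind. lncRNA genes within 5 kb of a coding gene end were marked in 42.3% (39.9 to 44.7) and those overlapping a coding gene in 30.1% (28.7 to 31.4). When peaks that also lay at a coding gene end were left out, 8.88% (8.18 to 9.62) of the other lncRNA genes had a peak. This interval overlaps that of the far genes, but the shares are not alike in kind. Other lncRNA genes marked only by such a peak stayed in the count as unmarked, while no far gene had such a peak to lose.

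**Figure D1:**
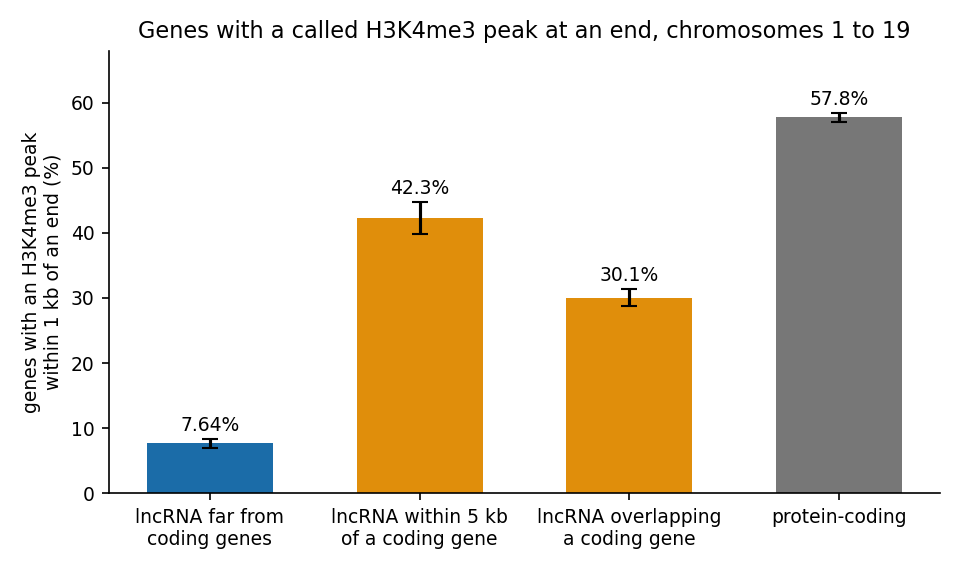
Share of genes with a called H3K4me3 peak within 1 kb of an annotated end (y axis, percent) in 4 classes of gene on chromosomes 1 to 19. Bars give the share in the 1 library and error bars the exact 95% binomial interval; far lncRNA genes stand at 7.64% and protein-coding genes at 57.8%.

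As a positional background, the peaks were moved along their chromosomes and counted again. All peaks moved up by 100 kb met an end of 5.64% (5.08 to 6.24) of far lncRNA genes, and moved down 5.94% (5.37 to 6.55), not far below the share in place. Among peaks with a fold enrichment of 30 or more the order was the other way. These lay at an end of 1.43% (1.15 to 1.76) of the genes in place, against 2.80% (2.41 to 3.24) moved up and 3.28% (2.85 to 3.75) moved down. Moved peaks include those called at coding gene ends, none of which lay at these genes in place. Of the 473 peaks at far lncRNA ends, 465 lay over 5 kb from every coding gene end, and none overlapped the window of a coding end. With only peaks over 5 kb from coding ends, 7.53% of far lncRNA genes were marked in place, against 2.02% with the peaks moved up and 1.96% with the peaks moved down by 100 kb. This comparison was chosen after the values were seen. For such peaks with a fold enrichment of 30 or more the order then followed that of all far peaks, with 1.39% in place, 0.319% moved up and 0.223% moved down. The share of strong peaks against its background thus depends on whether peaks near coding ends are moved too.

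Far lncRNA ends held a minority of the intergenic peaks and a larger share of their tags. The list held 2787 peaks over 5 kb from coding gene ends and outside coding genes. Far lncRNA ends held 465 of these (16.7%), with 82196 of their 254160 tags (32.3%). At AY036118 alone, described below, 1 peak held 5649 of these tags. A further 2076 (74.5%), with 53.6% of the tags, lay at no annotated gene end. Of the 465 peaks 16.8% had a fold enrichment of 30 or more, against 3.66% of the 2076. Inside the gene and at neither end, a further 177 far lncRNA genes (2.82%) had a peak.

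Where a far lncRNA gene was marked, the mark sat mostly at the annotated 5′ end. The promoter table gave a strand for 4758 of the 6279 genes. Among 4293 of them over 2 kb long, 5.85% (5.16 to 6.59) had a peak at the 5′ end and 1.65% (1.29 to 2.08) at the 3′ end. With all peaks moved up by 100 kb the shares were 3.21% and 2.77%, and moved down 3.17% and 3.33%. The 3′ ends in place held fewer peaks than the moved positions did, but the moved peaks include those called at coding gene ends. The move of only peaks far from coding ends was not counted by end. Whether 3′ ends held fewer peaks than that background was not tested. Of 278 marked genes of this kind with a peak at 1 end, 229 had it at the 5′ end, which is 82.4% (77.4 to 86.7).

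Peak summits fell within the gene body at 69.0% of these 229 genes, a median of 359 bp away from the annotated end. The median reach was 870 bp inward and 474 bp outward. For the 49 genes marked at the 3′ end, 53.1% of summits fell within the gene body, and the median distance to the end was 720 bp. Median fold enrichments were 14.47 (quartiles 9.40 and 26.04) at 5′ ends and 13.02 (quartiles 9.40 and 19.5) at 3′ ends. Peaks of fold 30 or more lay at 46 of the 229 and at 5 of the 49. Over all lengths, 405 marked genes had a peak at 1 end and 75 at both, and 45 of the 75 were 2 kb long or less, so that their windows touch.

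Peaks at far lncRNA ends were mostly short and weak. Their median length was 1178 bp, with quartiles of 807 and 1738 bp, and they held a median of 73 tags (quartiles 37 and 164). The authors' fold enrichment over the input had a median of 13.7, with quartiles of 9.02 and 23.9. Peaks at coding gene ends had medians of 2104 bp, 319 tags and 38.3. The lower quartile of fold enrichment at coding ends, 28.6, lay above the upper quartile at far lncRNA ends. A fold enrichment of 30 or more was found in 81 of the 473 peaks (17.1%) and in 72.6% of those at coding ends.

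By gene, the highest fold enrichment at an end was under 10 in 141 of the 480 marked genes, from 10 to 20 in 182, from 20 to 30 in 67 and 30 or more in 90. The plot of width against fold shows these genes one by one.

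**Figure D2:**
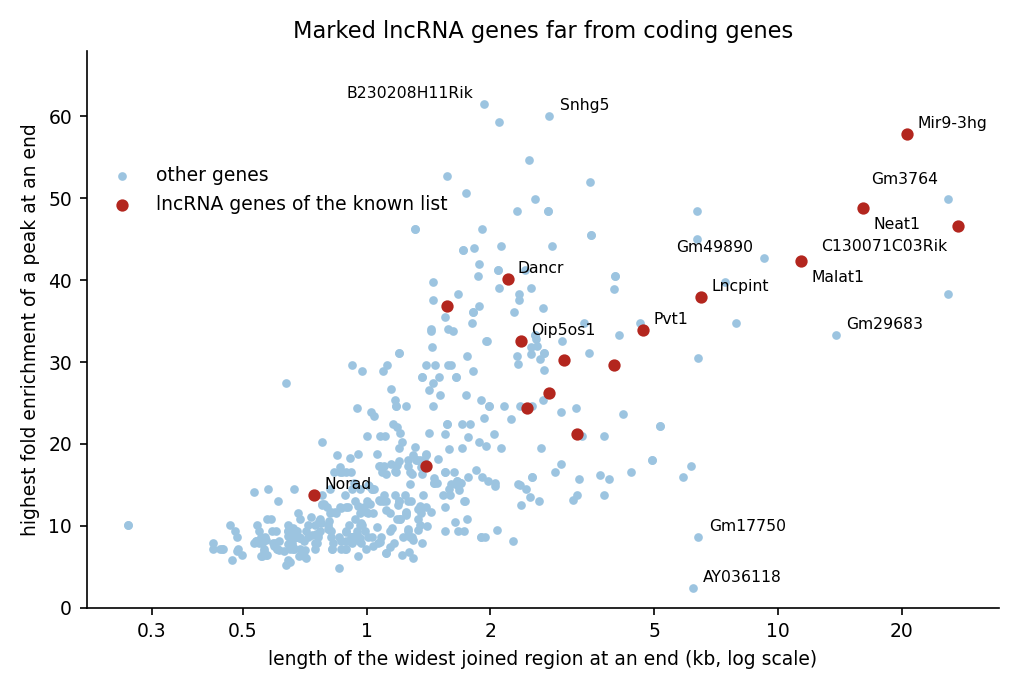
Each point is 1 of the 480 marked far lncRNA genes, by the length of the widest joined region at an end (x axis, kb, log scale) and the authors' highest fold enrichment of a peak at an end (y axis). Red points are the 16 marked genes of a list of known lncRNAs; the miR-9 hosts, Neat1 and Malat1 lie at the right, and AY036118 at a fold of 2.43.

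Joining peaks 1 kb or less apart gave 460 regions at far lncRNA ends with a median length of 1201 bp (95% interval of the median 1140 to 1274). The regions at coding ends had a median of 2160 bp and those at other lncRNA ends away from coding ends 1735 bp. Regions under 1 kb made up 37.4% at far lncRNA ends and 5.56% at coding ends. Of the 460, 18, or 3.91% (2.34 to 6.11), were 5 kb or longer, against 3.49% (3.15 to 3.86) at coding ends. At other lncRNA ends away from coding ends it was 5.81% (3.98 to 8.14). The interval at far lncRNA ends overlapped both. With peaks up to 3 kb apart joined, 30 of 455 regions reached that length, or 6.59% (4.49 to 9.28), against 6.88% (6.397 to 7.38) at coding ends. The other lncRNA ends then had 14.3% (11.4 to 17.6), an interval above that of far lncRNA ends. Of 460 regions, 37 lay at an end of 2 far lncRNA genes each, which made 72 genes share a region with another. In 1 region, that of Neat1, the joined region also reached the window of a coding gene end.

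**Figure D3:**
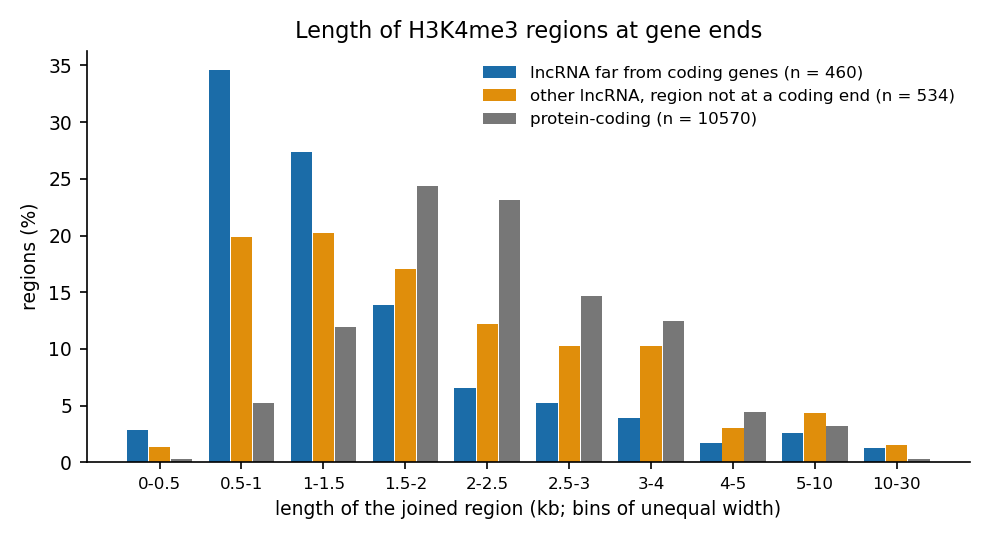
Share of joined H3K4me3 regions (y axis, percent of the class) by length (x axis, kb, bins of unequal width) at ends of far lncRNA genes, of other lncRNA genes away from coding ends, and of protein-coding genes. Far lncRNA regions peak between 0.5 and 1 kb (34.6%), coding regions between 1.5 and 2 kb (24.4%), and all 3 classes have a tail beyond 5 kb.

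The 3 hosts of miR-9, a microRNA abundant in neural progenitors, lay wholly or in part under 3 of the widest regions. C130071C03Rik (chromosome 13, 83721381 to 83741308), which contains Mir9-2, lay whole under a single peak of 27.4 kb with 4359 tags and a fold enrichment of 46.6. The same peak covered its neighbour Gm52046, which is read from the other strand. Gm3764 on chromosome 3, which contains Mir9-1, had 19224 of its 23287 bp under a joined region of 26000 bp made of 5 peaks with 3748 tags, which also reached the 3′ end of AW047730. Mir9-3hg on chromosome 7 had at its 5′ end a peak of 20.6 kb with 3180 tags and a fold enrichment of 57.9, which covered 16594 of its 34378 bp, and another peak at its 3′ end. The mature miR-9 arm from these 3 loci is the same, as RefSeq gives it, with bases 2 to 8 (the seed) in capitals.
mmu-miR-9-5p: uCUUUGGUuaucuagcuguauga

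The nuclear lncRNAs Neat1 and Malat1 also lay under wide regions. Neat1 (chromosome 19, 5824708 to 5845480) had at 1 end 16.1 kb in 4 peaks with 2080 tags, and its strongest peak had a fold enrichment of 48.8. Its nearest coding gene end, of Frmd8, lay 5.49 kb away, close to the bound of the definition, and that region cannot be given to Neat1 alone. Malat1 on the same chromosome lay whole under a joined region of 11.4 kb in 2 peaks with 2097 tags and a fold enrichment of 42.4.

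The remaining 3 of the 10 genes with the widest regions have no name from a function. Gm29683, a gene of 159.0 kb whose 5′ end lies toward Nr2f2, had a single peak of 13.8 kb there with 1548 tags and a fold enrichment of 33.3. Nr2f2, a nuclear receptor gene of progenitors, ended 14.1 kb away. Gm49890 on chromosome 4, which contains Mir31, had 9.25 kb at its 5′ end with 1095 tags and a fold enrichment of 42.7, and its nearest coding gene, Ifne, had no peak at an end. Gm51670 on chromosome 9 had 7.92 kb with 1027 tags at its 5′ end, 326.4 kb from a coding gene end. Only 184 bp of that region lay over Gm51670, and Mir125b-1 lies under it. Gm51670 lies inside Mir100hg on the other strand. Mir100hg itself had no peak at an end and 6 peaks inside the gene, the strongest being the one at Gm51670 (fold enrichment 34.7).

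Some regions were wide with a low fold. At AY036118 on chromosome 17 the 3′ end lay under 6.21 kb with 5649 tags, the most tags of any peak on chromosomes 1 to 19. Its fold enrichment over the input, 2.43, was the lowest of these peaks, so the input background was also high there. Of this region 812 bp lay over the gene, and it counts among the 18 regions of 5 kb or more. Gm17750, 157.5 kb from Tmem161b, had a region of 6.41 kb with 317 tags over its 5′ end, and its own peak there had a fold enrichment of 8.62.

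The strongest peaks by fold enrichment were compact, apart from that of Mir9-3hg. B230208H11Rik (chromosome 10) led with 61.5 over 1927 bp and 299 tags at its 5′ end. Snhg5, a host of small nucleolar RNAs, followed with 60.0 over 2779 bp and 467 tags, and Gm26901 with 59.3 over 2095 bp and 303 tags. B930059L03Rik had 54.7 over 2479 bp and 499 tags. All 5 values, picked as the highest, lie above the upper quartile of peaks at coding ends, 45.6, and below the highest there, 77.4.

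A list of 103 names of known lncRNAs was looked up, chosen with earlier results of these data known. Of these, 77 were lncRNA genes on the chromosomes used and 32 met the definition. Of the 32, 16 were marked (50%, 31.9 to 68.1), against 7.64% of all far lncRNA genes.

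Of the marked genes of the list not yet described, 6 had fold enrichments above 30. Dancr, a small host gene of a snoRNA, had 40.1 over 2202 bp with 332 tags. Lncpint, a transcript induced by p53, had 37.9 over 6505 bp with 1079 tags at its 5′ end, in a peak shared with 2210408F21Rik on the other strand. Pvt1, which lies beside Myc, had 33.9 over 4713 bp with 697 tags. Oip5os1, also called Cyrano and known for the decay of miR-7, had a fold enrichment of 32.5 over 2369 bp with 378 tags. Morrbid, studied in myeloid cells as a regulator of the apoptosis gene Bcl2l11, had 30.2 over 3021 bp with 337 tags, in a region shared with Gm36154. The gene 2610035D17Rik had 36.9 over 1566 bp with 211 tags at its 5′ end.

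At the ends of the remaining marked genes of the list the fold enrichment was under 30. Pantr2, 6.85 kb from the progenitor factor gene Pou3f3, had a fold enrichment of 29.7 over 4000 bp. Trp53cor1, also called lincRNA-p21, had 24.5, with 201 tags. Mir99ahg had 21.2 at its 5′ end and a stronger peak of 42.1 inside the gene. Norad, which binds Pumilio proteins, had the weakest peak of the list, with 13.7 over 744 bp and 38 tags. 2610307P16Rik had 26.2 with 441 tags at its 5′ end, and Mir124a-1hg, a host of the neuronal microRNA miR-124, had 17.4 with 85 tags.

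The 16 unmarked genes of the list included transcripts of neurons, of imprinted loci and of other tissues. Rmst, a transcript of neurogenesis that binds Sox2, had no peak nearer than 391.1 kb to an end. Miat, found in neurons, had none nearer than 46.8 kb, and Tunar, a neural transcript, none nearer than 69.6 kb. The nearest peak to Snhg11, a neuronal transcript, lay 13.8 kb away and was that of the neighbouring far lncRNA gene Snhg17 (fold enrichment 44.1). Mirg, of the imprinted Dlk1 and Dio3 locus, had no peak within 631.5 kb, and Hotair of the HoxC cluster none within 51.0 kb. Bvht, Carmn and Mirt1, known from heart and muscle, Platr4, known from embryonic stem cells, and Halr1, Paupar and Mir124-2hg had their nearest peak between 8.07 and 442.8 kb from an end and none over the gene.

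At 3 unmarked genes a peak lay close by. Mir17hg, the host of the growth-promoting miR-17 to miR-92 cluster, had a peak of 2775 bp with 270 tags and a fold enrichment of 22.4 that stopped 1327 bp from its annotated end. At the imprinted gene H19 a peak with a fold enrichment of 9.40 lay 1623 bp from an end. Mir100hg had peaks inside the gene. These genes would count as marked under wider windows or with peaks inside the gene.

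Genes that overlap a microRNA held a larger share of marked genes than the other far lncRNA genes. Of 46 far lncRNA genes that overlap an annotated microRNA, 18 had a peak at an end (39.1%, 25.1 to 54.6), against 7.41% (6.77 to 8.09) of the other 6233. Strand was not compared, so not all of these genes are hosts. Dubr and 5730522E02Rik, both marked, lie on the strand opposite their microRNA. Mature sequences were matched to 16 of the 18, and a missing match does not show that RefSeq lacks the sequence. Mature arms from Gm49890, described above, and from the hosts that follow show which of them share a seed (bases 2 to 8, in capitals).
mmu-miR-31-5p: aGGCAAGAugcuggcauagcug
mmu-miR-101a-3p: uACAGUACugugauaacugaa
mmu-miR-182-5p: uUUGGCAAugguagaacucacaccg
mmu-miR-96-5p: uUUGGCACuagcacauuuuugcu
mmu-let-7b-5p: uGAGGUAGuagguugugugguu
mmu-let-7c-5p: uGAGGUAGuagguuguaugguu
mmu-miR-365-3p: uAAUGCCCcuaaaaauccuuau
The let-7 pair shares the seed GAGGUAG. From 1 host come miR-182 and miR-96, whose seeds differ only at base 8. None of the arms printed here shares the seed of miR-9. E130102H24Rik, which contains Mir101a, had 40.5 over 4024 bp with 753 tags. Gm32817 and Gm53058, which overlap each other and contain Mir193b and Mir365-1, shared a peak with a fold enrichment of 36.2 and 281 tags. Mirc35hg, the host of the sensory cluster Mir182, Mir183 and Mir96, had 14.5 with 104 tags. Lncppara, which contains Mirlet7b and Mirlet7c-2, had the weakest, with 7.23 over 868 bp and 34 tags. Let-7 is known for its role in the differentiation of progenitors.

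Among 57 far lncRNA genes that overlap an annotated small nucleolar RNA, 9 were marked (15.8%, 7.48 to 27.9), an interval that takes in the share of the rest. The strongest were Snhg5, Snhg17 and Dancr, described above. Snhg20, named for the same kind of gene but overlapping a microRNA in this annotation, had 50.6 over 1743 bp with 337 tags.

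Marked starts of far lncRNA genes held more CpG than unmarked ones. The promoter table held 5799 starts of far lncRNA genes, and a start was called marked when a peak lay within 1 kb. Several starts can belong to 1 gene and share sequence, so they are not independent. Starts with a peak held a median of 7 CpG in 300 bp (quartiles 4 and 13) and those without held 3 (quartiles 2 and 5). At starts with a peak of fold 30 or more the median was 13.5. Coding starts with a peak held a median of 22.

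The share with a peak went up through the CpG classes. It was 3.19% (2.66 to 3.79) of 3858 far lncRNA starts with 0 to 4 CpG, 7.30% of 1507 with 5 to 9 and 22.6% (18.4 to 27.2) of 368 with 10 to 19. Of 66 starts with 20 or more CpG it was 69.7% (57.1 to 80.4). Coding starts in the same classes had 7.73%, 33.6%, 80.1% and 93.9%, and other lncRNA starts 7.57%, 19.1%, 46.7% and 90.3%. In each class the interval of far lncRNA starts lay below those of both other groups. Peaks at coding gene ends were counted here, and starts of other lncRNA genes can lie within reach of them. Over all other lncRNA genes, leaving out such peaks lowered the share with a peak at an end from 33.3% to 8.88%. This was not separated by CpG class. In the class with 20 or more CpG, the median fold enrichment of the peaks was 33.0 at far lncRNA starts and 41.95 at coding starts.

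**Figure D4:**
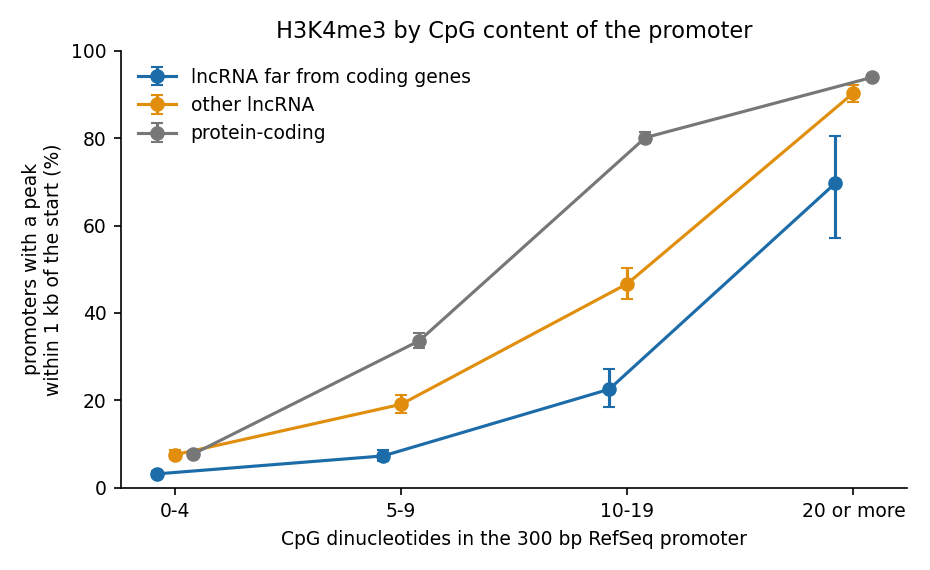
Share of RefSeq starts with a peak within 1 kb (y axis, percent, exact 95% binomial intervals) by the number of CpG dinucleotides in the 300 bp promoter (x axis) for far lncRNA genes, other lncRNA genes and protein-coding genes. All 3 lines climb, from 3.19% to 69.7% for far lncRNA genes and from 7.73% to 93.9% for coding genes. For other lncRNA genes, peaks at coding gene ends are counted too.

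Promoters of the CpG island type were rare at far lncRNA genes. With a GC content of at least 50% and an observed to expected CpG ratio of at least 0.6, 162 of the 5799 starts (2.79%) qualified, against 46.5% of coding starts. A peak lay at 72 of the 162 (44.4%, 36.6 to 52.4) and at 5.14% of the remaining starts. The other 90 were CpG-rich without a peak. They included Tunar, Miat and Snhg11, printed or described above, and 4930563M20Rik with 32 CpG. Coding starts of this type had a peak in 93.0%.

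A few strong peaks lay at starts poor in CpG. Of the 3858 far lncRNA starts with 0 to 4 CpG, 15 (0.389%) had a peak of fold 30 or more. The share was 39.4% of the 66 starts with 20 or more CpG. Among the genes with the widest regions, the promoter of Gm49890 held 4 CpG, that of Gm51670 held 5, that of Malat1 held 10 and that at the 5′ end of C130071C03Rik held 12. Malat1 and C130071C03Rik thus fall in the class with 10 to 19 CpG. Mir9-3hg held 35 and 28 at its 2 starts.

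The GC box differed most between marked and unmarked starts of the 6 motifs searched on both strands. GGGCGG, the GC box, was found on either strand in 27.9% of marked and 7.32% of unmarked far lncRNA starts, in 68.01% of marked coding starts and in 36.0% of all promoters of the table. CCAAT differed little, with 37.6% and 38.1% of marked and unmarked far lncRNA starts and 37.3% of all promoters. TATAAA was found in 12.7% of marked and 18.0% of unmarked starts and in 13.6% of all promoters. TGANTCA, the AP-1 motif, was found in 10.5% of both and in 7.84% of all promoters. ATGCAAAT, the octamer of POU factors, was found in 2.21% and 2.34%, with 1.75% of all promoters. The full NFI site, TTGGC and GCCAA 5 bases apart, was found in 0 marked and 2 unmarked starts and in 0.0382% of all promoters. Motifs can overlap, the GC box contains a CpG, and a match is a description of the sequence only.

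Marked far lncRNA genes lay nearer to coding genes than unmarked ones, at a median of 31.8 kb against 52.3 kb. The share marked was 10.5% (9.02 to 12.1) of 1624 genes at 5 to 20 kb, 9.41% at 20 to 50 kb, 6.07% at 50 to 200 kb and 4.0% (2.93 to 5.32) of 1125 genes beyond 200 kb. Genes whose nearest coding gene was itself marked had a peak in 8.73% (7.90 to 9.63), and those beside an unmarked coding gene in 5.44% (4.50 to 6.50). The same order was seen within each of the 4 distance classes, from 11.98% against 7.42% at 5 to 20 kb to 4.61% against 2.84% beyond 200 kb. In all but the nearest class the intervals overlapped. CpG content was not separated from distance and neighbour.

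**Figure D5:**
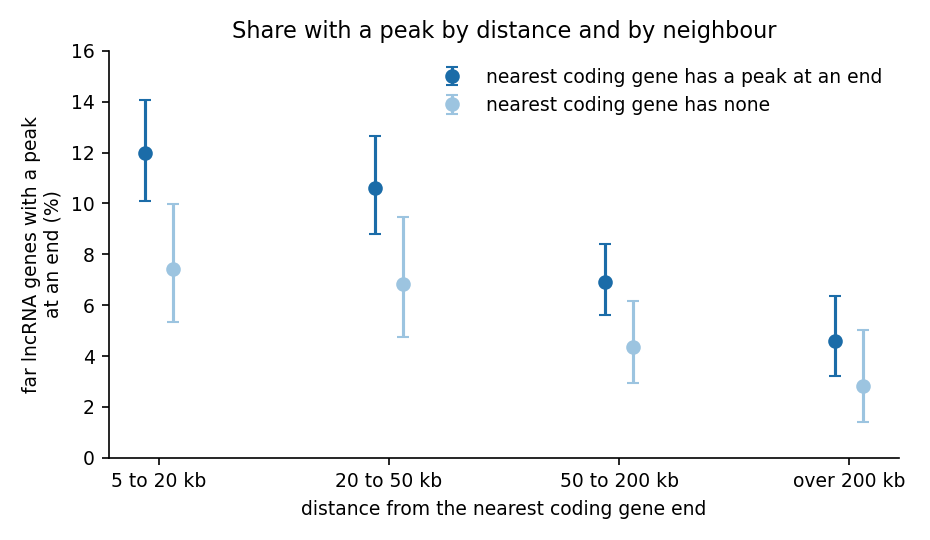
Share of far lncRNA genes with a peak at an end (y axis, percent, exact 95% binomial intervals) by distance from the nearest coding gene end (x axis), split by whether that coding gene has a peak at an end. The dark points lie above the light ones in each of the 4 classes, and both decline from 5 to 20 kb to beyond 200 kb.

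The marked genes farthest from any coding gene had modest peaks. Gm35822 and AA545190 on chromosome 6 lie with their 3′ ends toward each other, 930.2 and 926.0 kb from Ndufa4, and shared a peak with a fold enrichment of 15.2 and 103 tags. Gm6634 on chromosome 3, 743.7 kb from Otol1, had the widest of this group, 4398 bp with 304 tags and a fold enrichment of 16.6 at its 5′ end. Gm38584 (726.1 kb from Arrdc4) and Gm41734 (653.7 kb from Gramd3) had 8.15 and 9.40.

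The marked genes nearest the bound of the definition overlapped in fold enrichment across it. Just outside 5 kb, Gm33560 at 5.04 kb had a fold enrichment of 22.4, 3110006O06Rik at 5.05 kb had 24.6 and Gm38959 at 5.11 kb had 31.0. Just inside, E230001N04Rik at 4.97 kb had 29.3, Gm28166 at 4.69 kb had 20.7 and 4931408D14Rik at 4.65 kb had 15.2.

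The share marked differed with the kind of annotation. Genes with a curated RefSeq transcript were marked in 12.8% (11.2 to 14.7) of 1448, and those with none listed in 6.09% (5.43 to 6.797) of 4831. Genes named by a Gm number were marked in 6.63% of 5187, Rik clones in 11.5% of 820, and genes with another symbol in 15.4% (11.4 to 20.3) of 272. Median fold enrichments of the marked genes were 13.7, 16.96 and 21.3 in this order. By gene length the share was 7.77% for genes under 5 kb, 7.70% from 5 to 20 kb, 7.05% from 20 to 100 kb and 10.8% (6.44 to 16.8) above 100 kb. By chromosome it lay between 3.77% on chromosome 8 (13 of 345 genes) and 11.8% on chromosome 17 (28 of 238).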

How the data were processed

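Positions were those of mm10, per the submitters' processing notes; an aligner was not given in the sources used here. The authors called peaks in the 1 H3K4me3 library over input using MACS 1.4.2 (p cutoff 1e-05, 1 tag kept per position), per the file header. A different caller, MACS2 2.1.0, is named in the processing notes of the submitters. The deposited list gives tag counts that are not normalized, a score of minus 10 times the log10 of the p-value, a fold enrichment as a ratio over the input and a false discovery rate in percent, all the authors' own values. Keeping 1 tag per position limits counts in strong peaks, and a site below the cutoff is not listed, so a gene called unmarked may carry signal too weak to be called. Listed peaks held at least 13 tags.

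Peaks were joined by position to the RefSeq gene table of GRCm38.p6 with Python 3.11.15, pandas 2.3.3 and scipy 1.17.1; an overlap of 1 bp with the window of 1 kb around an end counted. The join was tested on simulated peaks placed at ends of 200 genes, of which 200 were recovered. Strand and promoter sequence came from the RefSeq promoter table, which matched 4758 of 6279 genes. Genes named in the text were 10 by region width, 5 by fold enrichment, 5 by tags in a peak, the 5 marked genes farthest from coding genes, 3 on each side of the 5 kb bound, and all members of a list of 103 known lncRNAs. Hosts of microRNAs and snoRNAs, Gm17750 and 4930563M20Rik were named after their values were seen. The gene class, the lists and the settings were chosen with earlier results of these data known.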

Additional observations from a re-analysis of the deposited data

How the results depend on the processing

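The share of far lncRNA genes with a peak at an end, 7.64% here, was 6.69% with a window of 500 bp, 6.43% with the summit in the window, 6.26% with a -log10 p of at least 10, 9.79% with a window of 2500 bp and 10.5% with a peak anywhere over the gene. It was 5.33% for genes over 50 kb from coding ends and 12.8% for genes with a curated transcript. All peaks moved by 100 kb gave 5.64%, or 5.94% when moved down; only peaks over 5 kb from coding ends gave 2.02% moved up and 1.96% moved down. The settings with peaks moved down and with peaks far from coding ends were added after the data were seen. Peaks with a -log10 p of at least 10 raised the median region length from 1201 to 1360 bp, the median tags from 73 to 96 and the median fold enrichment from 13.7 to 16.6, since the weak peaks are dropped. A joining gap of 3 kb raised the regions of 5 kb or more from 18 to 30. Bounds of 2 and 10 kb, only genes that overlap no other member, peaks away from coding ends, and the other settings of length, tags and fold left each value within its interval or, for the count, within 1.5 times. No paired analysis was possible because there is 1 library of each kind. With 1 library, depth limits what a gene without a peak shows: the weakest peak at a far lncRNA end held 14 tags.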
